A study of Homo sapiens with 36 samples.

Results

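The 37 genes carried by the mitochondrial genome were followed in RNA sequencing of TXNL1 KO HEK 293T cells, a human embryonic kidney cell line. Members were all genes of the count table whose symbol, matched from the Ensembl identifier through GENCODE release 44, began with MT-. This gave 13 mRNAs, 22 tRNAs and 2 rRNAs among 61587 genes. The KO line came from a single cell and had received an empty vector or a lentiviral construct expressing WT, D162R R234D or SxxS TXNL1 from a CMV promoter, so that all 4 lines carried the same KO. D162R R234D changes residues of TXNL1 at its contact with the proteasome, and SxxS replaces the cysteines of its thioredoxin active site with serines. Each line was left untreated (labelled DMSO) or received hydrogen peroxide (600 µM) or arsenite (100 µM) over 6 h. With 3 replicates, this gave 12 groups and 36 libraries. Whether replicates were separate cultures is not stated beyond the word triplicate, so the p-values measure the spread between these samples.

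Human mitochondrial DNA is transcribed from both strands into long polycistronic RNAs. The tRNAs lie between most mRNAs and rRNAs, and their excision by RNase P and ELAC2 releases the neighbouring transcripts. The mRNAs encode core subunits of respiratory complexes I, III and IV and of ATP synthase, while the tRNAs and rRNAs serve mitochondrial translation. In the human reference, genes on the plus strand are those transcribed from the heavy-strand promoter and genes on the minus strand those transcribed from the light-strand promoter. Of the 37 genes, 28 lay on the plus strand (12 mRNAs, 14 tRNAs and both rRNAs) and 9 on the minus strand (MT-ND6 and 8 tRNAs).

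The 4 minus-strand tRNA genes that follow were the tRNA genes called after hydrogen peroxide on average. MT-TN, MT-TC and MT-TY among them were also called higher in all lines after arsenite. Their sequences are shown 5′ to 3′ on the minus strand of GRCh38 (GENCODE release 44), with the anticodon in capitals. MT-TN (tRNA-Asn) lay at chrM:5657-5729, MT-TC (tRNA-Cys) at chrM:5761-5826, MT-TY (tRNA-Tyr) at chrM:5826-5891 and MT-TS1 (tRNA-Ser, UCN codons) at chrM:7446-7514.
MT-TN: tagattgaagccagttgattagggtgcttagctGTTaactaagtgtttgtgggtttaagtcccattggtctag
MT-TC: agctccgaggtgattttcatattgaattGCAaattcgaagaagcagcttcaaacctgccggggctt
MT-TY: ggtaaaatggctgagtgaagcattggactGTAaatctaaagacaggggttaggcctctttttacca
MT-TS1: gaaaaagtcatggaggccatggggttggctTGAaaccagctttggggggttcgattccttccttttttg

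Every one of these genes is shorter than a read of 100 bases. Reads counted on a tRNA gene therefore also covered its neighbours, or were fragments of longer RNA, and mature tRNA was not measured separately from precursors. MT-TN and MT-TC are separated by 31 bases at chrM:5730-5760, the origin of light-strand replication, shown on the plus strand because the neighbours on either side responded unequally to hydrogen peroxide.
MT-TN to MT-TC: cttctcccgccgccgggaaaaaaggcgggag

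The mRNA genes form 3 overlapping pairs, and counts in the shared bases cannot be assigned to 1 gene. MT-ATP8 and MT-ATP6 share 46 bases, MT-ATP6 and MT-CO3 share 1 base and MT-ND4L and MT-ND4 share 7 bases. The plus-strand junctions at chrM:8517-8582, chrM:9193-9222 and chrM:10748-10778 are shown with the shared bases in capitals, since the ATP8/ATP6 and ATP6/CO3 junctions join the mRNAs that fell most after arsenite and the ND4L/ND4 junction joins the pair that did not pass the test on average over the lines.
ATP8/ATP6: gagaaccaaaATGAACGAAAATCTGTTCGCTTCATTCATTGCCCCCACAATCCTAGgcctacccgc
ATP6/CO3: cacgacaacacataAtgacccaccaatcac
ND4L/ND4: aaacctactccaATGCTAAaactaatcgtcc

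Library totals ranged from 42072410 to 174119002 counts, with a median of 66016833. A minimum of 10 counts, summed over the untreated vector replicates, left 22486 of 61587 genes to be tested, among them 36 of the 37 mitochondrial genes. MT-TA, with 74 counts over all 36 libraries, was the exception. VIM, a marker of HEK 293 cells, stood at 445 to 670 CPM (counts per 1000000 of the TMM-scaled library total), LIN28B at 54.9 to 196 and the immune marker PTPRC at 0 to 0.168. The other markers listed for this line were low, with NEFL at 0.575 to 3.12, PAX2 at 0.147 to 0.838 and the neurofilament gene NEFM at most at 0.296 CPM. TXNL1 mRNA, which the KO need not remove, was at 28.6 to 31.7 CPM in untreated vector cells and at 51.7 to 66.2 in the complemented lines. The libraries labelled WT arsenite replicate 1 and WT hydrogen peroxide replicate 2 stood apart, with a standard deviation over 15674 genes of 0.502 and 0.571 (log2 CPM about the group median) against 0.0687 to 0.174 in the other libraries. For the results below that changed most when both were left out, the result without them is given as well.

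The strand of origin was not resolved by the counts. The labels describe a strand-specific library, but the use of strand in counting is not stated. MIR3661, a 96-base gene inside exons of PPP2CA on the other strand, had 1.83 times the counts per base of that gene, and the gene ENSG00000259952 opposite MAZ had 0.825 times. By contrast, ENSG00000273175 opposite HNRNPU had 0.0015 times. Counts on a minus-strand gene may thus include plus-strand RNA, and the converse, so that the strands below are those of the annotation.

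Mitochondrial genes made up 0.805% ± 0.101 (SD, n = 12) of counts in untreated libraries, 0.906% ± 0.108 after hydrogen peroxide and 0.745% ± 0.0772 after arsenite. The 3 ranges overlapped, at 0.662 to 0.979%, 0.705 to 1.09% and 0.589 to 0.872%. After arsenite, the mean share was below the untreated mean in vector, WT and D162R R234D cells but above it in SxxS cells (0.819% ± 0.0488 against 0.713% ± 0.0451, n = 3). These are shares of an mRNA library, and fewer mitochondria and less RNA per mitochondrion cannot be told apart.

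The makeup of the mitochondrial counts changed with arsenite more than their sum. rRNA contributed 13.7% ± 0.531 of mitochondrial counts in untreated libraries, 13.1% ± 0.846 after hydrogen peroxide and 40.6% ± 1.83 after arsenite (n = 12 each). The lowest arsenite library, at 37.5%, was far above the highest untreated one, at 14.8%. mRNA made up 85.1% ± 0.565, 85.9% ± 0.965 and 57.9% ± 1.93 in the same order, and tRNA genes 1.17% ± 0.0582, 1.03% ± 0.157 and 1.57% ± 0.137. Minus-strand genes gave 81.8% ± 1.26 of the tRNA counts in untreated libraries and 88.6% ± 0.796 after arsenite.

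**Figure D1:**
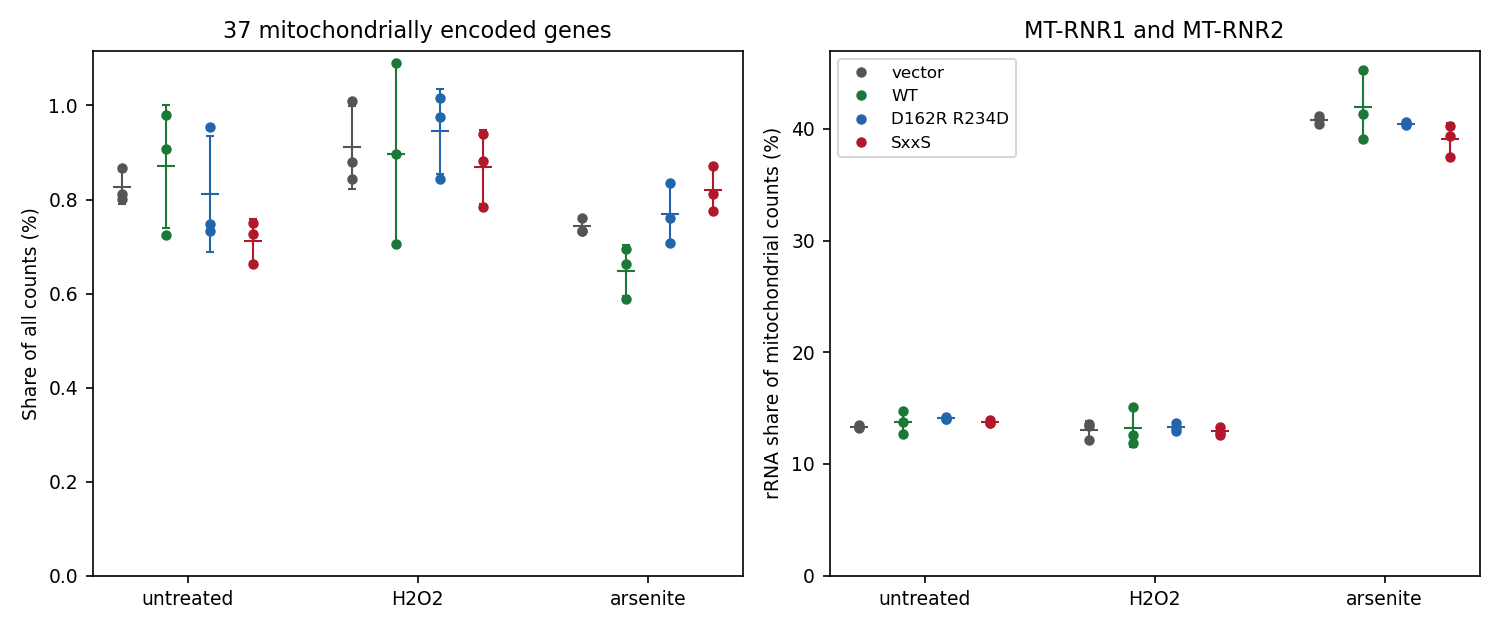
Left, share of all counts (%) on the 37 mitochondrially encoded genes and right, rRNA share of those counts (%), in each library (points) with the mean and SD of each group of 3. The total share overlaps between treatments, whereas the rRNA share lies at 37.5 to 45.3% in the 12 arsenite libraries and at or below 15.1% in the other 24.

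Per kilobase of annotated length, the most abundant members in untreated vector cells were MT-ATP8 (1125 ± 114 CPM per kb, SD, n = 3), MT-CO2 (985 ± 33.4), MT-ATP6 (967 ± 54.3), MT-CO1 (960 ± 45.8) and MT-CO3 (940 ± 40.7), which encode 2 ATP synthase subunits and the 3 core subunits of cytochrome c oxidase. Each overlapped its neighbour in this order. These are counts of mRNA libraries in which the capture of rRNA was not measured. The order of rRNAs among mRNAs is therefore not one of amounts in the cell. MT-ND4 (555 ± 33.9) lay below them without overlap, followed by MT-RNR2, the 16S rRNA (499 ± 22.02), and MT-CYB, cytochrome b of complex III (452 ± 17.8). MT-ND1 (436), MT-ND5 (410), MT-ND6 (403), MT-ND4L (385) and MT-ND3 (372), all subunits of complex I, again overlapped from each to the next, and MT-RNR1, the 12S rRNA (323 ± 17.7), and MT-ND2 (274 ± 14.1) were lowest.

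The tRNA genes were mostly lower and split by annotated strand, with MT-TY near the level of MT-ND6. The 14 plus-strand tRNA genes had a median of 3.61 CPM per kb in untreated vector cells and ranged from 2.14 (MT-TS2) to 123 (MT-TL1), while the 8 minus-strand genes had a median of 112 and ranged from 0.413 (MT-TA) to 400 (MT-TY). MT-ND6, the only minus-strand mRNA, was at a level between those of plus-strand mRNAs. Copies of mitochondrial sequence in the nuclear genome bear on these counts. At least 1 window of 100 bases over the gene had an exact nuclear copy in GRCh38 for 7 of 12 plus-strand mRNAs and 6 of 8 minus-strand tRNAs. The same held for 4 of 14 plus-strand tRNAs and 1 of 2 rRNAs. The share of such windows reached 78.8% for MT-TN. It was 50% for MT-TS1, 45.5% for MT-TC, 38.6% for MT-TY and 30.5% for MT-CO1.

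Arsenite raised the counts of both rRNAs and lowered those of most mRNAs. Averaged over the 4 lines, 29 of the 36 tested members were called by edgeR's quasi-likelihood test at an adjusted p under 0.05, 8 higher and 21 lower, where 68.8% of all tested genes were called (37.4% higher and 31.5% lower). The median log2 fold change was -0.85 over the 13 mRNAs, -0.10 over the 21 tRNA genes tested and 1.17 over the 2 rRNAs, beside 0.06 over all tested genes. Most genes of any kind were thus called, and what set the mitochondrial classes apart from each other was the direction.

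MT-RNR2 ranged from 641 to 1003 CPM (median 760) in the 12 untreated libraries and from 2369 to 2908 (median 2585) in the 12 arsenite libraries. Every arsenite library was above every untreated one. The log2 fold change was 1.72 ± 0.05 (SE, adjusted p = 5.41e-22), a rise of 3.30-fold. This is a rise in counts of mRNA libraries, and whether arsenite altered the capture of rRNA was not tested. MT-RNR1 rose less, from 261 to 345 CPM (median 301) to 398 to 599 (median 449), with a log2 fold change of 0.62 ± 0.06 (adjusted p = 1.4e-10), again without overlap. The ratio of MT-RNR2 to MT-RNR1 per length was 1.46 to 1.93 in untreated libraries and 3.501 to 3.71 after arsenite without the outlying WT library, where it was 2.49.

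The ATP synthase subunits and MT-CO3, which are adjacent on the plus strand, fell furthest among the mRNAs. MT-CO3 ranged from 624 to 843 CPM (median 716) in untreated libraries and from 172 to 247 (median 203) after arsenite, a log2 fold change of -1.84 ± 0.05 (adjusted p = 1.15e-23). MT-ATP8 ranged from 153 to 335 (median 213) and from 51.6 to 81.3 CPM (median 59.8) in the same order (-1.86 ± 0.10, adjusted p = 1.98e-16), and MT-ATP6 from 474 to 814 (median 614) and from 154 to 287 (median 210; -1.54 ± 0.07, adjusted p = 2.94e-18). For none of these 3 genes did a treated library reach the lowest untreated one.

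MT-CO1 and MT-CO2, which lie just upstream of these genes, moved little on average over the lines. MT-CO2 ranged from 565 to 768 CPM (median 661) untreated and from 484 to 659 (median 543) after arsenite, overlapping, with a log2 fold change of -0.22 ± 0.06 (adjusted p = 0.000971). MT-CO1 ranged from 1254 to 1728 (median 1393) and from 1129 to 1550 CPM (median 1318; -0.14 ± 0.06, adjusted p = 0.0346), and its call was lost when any of 8 single libraries was left out (adjusted p up to 0.0943). By line, MT-CO1 was called in WT cells only (-0.41, adjusted p = 0.00329), with -0.17 in vector, -0.12 in D162R R234D and 0.16 in SxxS cells. MT-CO2 was called lower in vector (-0.32), WT (-0.27) and D162R R234D cells (-0.36) but not in SxxS cells (0.055). Within libraries, the ratio of MT-CO3 to MT-CO2 per length was 0.923 to 1.01 in the 12 untreated and 0.270 to 0.333 in the 12 arsenite libraries.

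Subunits of complex I also differed among themselves. The 12 untreated and 12 arsenite libraries had medians of 125 and 46.4 CPM for MT-ND3, 266 and 115 for MT-ND2 and 394 and 222 for MT-ND1. MT-ND3 (-1.44 ± 0.06, adjusted p = 4.37e-19), MT-ND2 (-1.24 ± 0.07, 4.26e-16) and MT-ND1 (-0.85 ± 0.06, 5.6e-13) fell, and their 12 arsenite libraries did not overlap the untreated ones. MT-CYB of complex III, at medians of 497 and 231 CPM, fell by 1.10 on the log2 scale (SE 0.06, adjusted p = 4.11e-16). MT-ND5 (medians of 689 and 462 CPM, -0.70 ± 0.16, adjusted p = 0.000261) and MT-ND6 (194 and 139 CPM, -0.55 ± 0.08, adjusted p = 1.8e-07) fell as well, both with overlapping libraries. By line, MT-ND5 was called in WT cells only. Without both outlying libraries it was also called in vector (-0.76, adjusted p = 0.000226) and D162R R234D cells (-0.57, 0.00303) but not in SxxS cells (-0.30, 0.11). MT-ND4 (605 to 893 CPM untreated, 482 to 895 after arsenite) and MT-ND4L (84.2 to 137 and 33.1 to 126 CPM) overlapped and did not pass the test on average over the lines (log2 fold changes -0.07 ± 0.07 and -0.16 ± 0.16, adjusted p = 0.416 and 0.376). By line, MT-ND4 was called lower in WT cells (-0.44, adjusted p = 0.0107, and -0.35, 0.0437, without both outlying libraries). It was not called in vector (-0.12), D162R R234D (-0.03) or SxxS cells (0.33).

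The outlying WT arsenite library bore on MT-ND5 and MT-ND4L. MT-ND5 stood at 156 CPM in that library and at 466 and 421 in the other WT arsenite replicates, and MT-ND4L at 33.1 against 102 and 84.2. Without both outlying libraries, the change of MT-ND5 in WT cells was -0.88 (adjusted p = 0.000224) in place of -1.20 (0.00209). The outlying hydrogen peroxide library was low in the same 2 genes, with MT-ND5 at 241 CPM against 979 and 777, and MT-ND4L at 34.1 against 150 and 121.

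**Figure D2:**
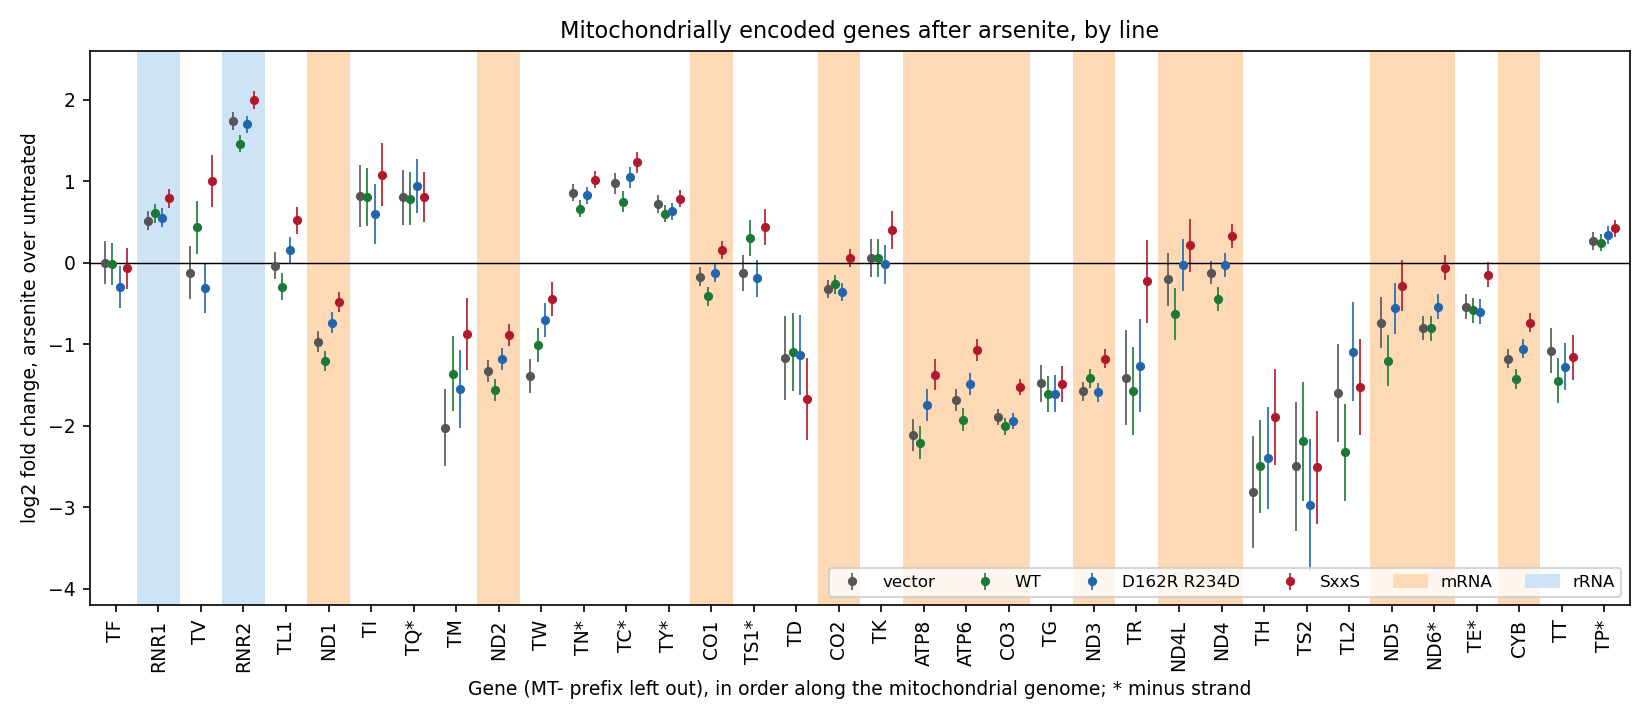
log2 fold change of arsenite over untreated (y axis) for the 36 tested members in genome order (x axis, asterisks mark minus-strand genes), one colour per line, with bars of 1 SE. Both rRNAs and the cluster MT-TN, MT-TC and MT-TY lie above 0 in all 4 lines, MT-ATP8, MT-ATP6 and MT-CO3 lie below -1 in all 4, and MT-CO1, MT-CO2, MT-ND4L and MT-ND4 lie between -0.63 and 0.33.

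**Figure D3:**
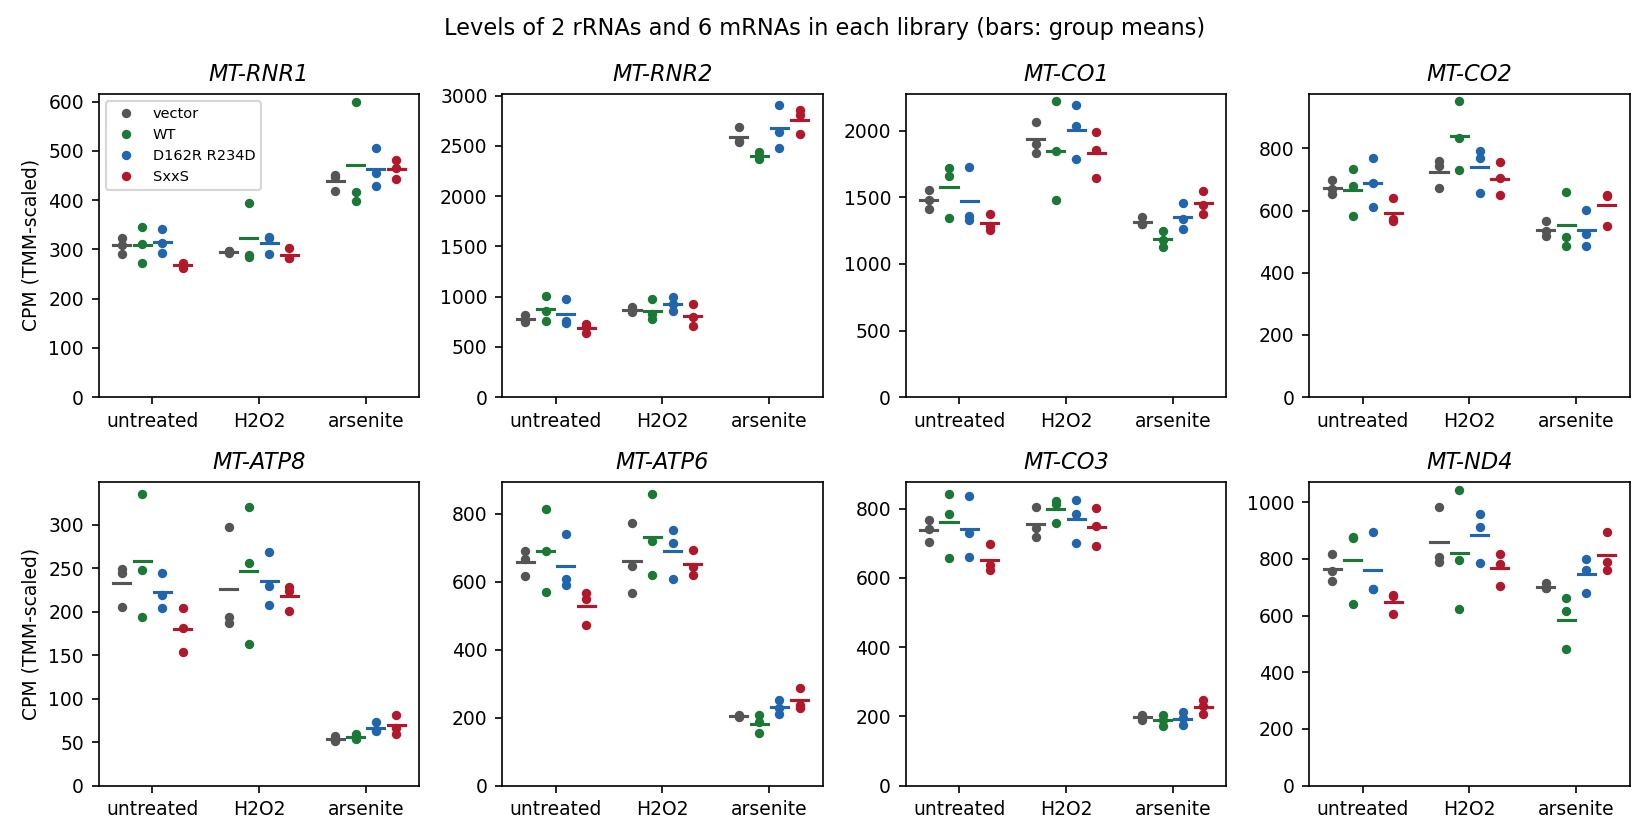
CPM of 8 members in each of the 36 libraries by treatment (x axis) and line (colour), with bars at the group means. MT-RNR2 is at 2369 CPM or above in all arsenite libraries and at 1003 or below in the others, and MT-CO3 is at 247 or below after arsenite and at 624 or above elsewhere.

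The tRNA genes moved in both directions after arsenite, mostly by annotated strand. Among the 7 tested minus-strand tRNA genes, 5 were called higher and 1 lower (median log2 fold change 0.69). Among the 14 plus-strand ones 1 was called higher and 9 lower (median -1.18). Of all tested genes, 37.4% were called higher and 31.5% lower. The exceptions were MT-TI (plus strand, 0.82, adjusted p = 0.00027) and MT-TE (minus strand, -0.47, adjusted p = 3.97e-06). Plus-strand tRNA genes other than MT-TL1 and MT-TG had at most 2085 counts over all libraries. MT-TL1 did not pass the test (0.08, adjusted p = 0.371), and MT-TG fell. Plus-strand mRNAs had a median of -0.97, and MT-ND6, on the minus strand, fell with them. Among tRNA genes called on average and changed in 1 direction in all 4 lines, the 3 largest rises were MT-TC, MT-TN and MT-TQ (tRNA-Gln), and the 3 largest falls MT-TS2 (tRNA-Ser, AGY codons), MT-TH (tRNA-His) and MT-TL2 (tRNA-Leu, CUN codons).

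MT-TC rose from 5.34 to 7.05 CPM in untreated libraries to 9.05 to 14.4 after arsenite, without overlap (log2 fold change 1.00 ± 0.06, adjusted p = 2.33e-14). MT-TN had means of 9.61 ± 1.03 and 17.2 ± 0.750 CPM (SD, n = 12; 0.84 ± 0.05, adjusted p = 1.07e-14). MT-TY, the neighbour of MT-TC on the same strand, rose by 0.68 ± 0.05 (adjusted p = 1.2e-12). MT-TQ had fewer counts, with means of 0.349 ± 0.116 and 0.608 ± 0.188 CPM, and rose by 0.83 ± 0.16 (adjusted p = 4.59e-05). Its values in WT arsenite cells were 1.105, 0.455 and 0.381 CPM, of which the 1.105 was the outlying library. Without both outlying libraries the average change was 0.63 (adjusted p = 0.000183), and that in WT cells was 0.05 (adjusted p = 0.919) in place of 0.79 (0.0401). MT-TW (tRNA-Trp), of the same cluster but on the plus strand, fell by 0.89 on the log2 scale (SE 0.10, adjusted p = 1.29e-08), from 0.680 to 1.33 CPM to 0.284 to 0.604. MT-TA (tRNA-Ala), whose gene is the remaining one of the cluster, was not tested, at medians of 0.0226 CPM (untreated) and 0.0184 (arsenite).

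The tRNA genes that fell most were near the limit of detection. MT-TH had means of 0.205 ± 0.0689 CPM untreated and 0.0356 ± 0.0292 after arsenite (n = 12; log2 fold change -2.40 ± 0.31, adjusted p = 6.45e-08), on 402 counts in all libraries. The outlying WT arsenite library held 14 of these counts, against 0 and 1 in the other WT replicates, and without both outlying libraries the change was -3.02 (adjusted p = 2.95e-10). MT-TS2 followed with 0.155 ± 0.0708 and 0.0263 ± 0.0235 CPM (-2.54 ± 0.38, adjusted p = 8.04e-07) and MT-TL2 with 0.226 ± 0.0985 and 0.0707 ± 0.0350 (-1.64 ± 0.30, adjusted p = 1.82e-05). These 3 genes are contiguous, between MT-ND4, which did not pass the test on average over the lines, and MT-ND5. MT-TG (tRNA-Gly), which lies between MT-CO3 and MT-ND3 and had more counts, fell by 1.55 (SE 0.11, adjusted p = 3.38e-13), between the values of both neighbours.

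Within single lines, arsenite called 24 of 36 members in vector cells, 6 higher and 18 lower, where 43.4% of tested genes were called (22.1% higher, 21.4% lower). In WT cells it called 27 members, 6 and 21, against 53.6% (28.7% and 24.9%). D162R R234D cells had 23 members called, 7 and 16, against 44% (22.5% and 21.5%), and SxxS cells 23 members, 10 and 13, against 43.6% (22.1% and 21.5%). In all, 5 members were called higher in all 4 lines (MT-RNR1, MT-RNR2, MT-TC, MT-TN and MT-TY), and 11 lower (MT-ATP6, MT-ATP8, MT-CO3, MT-CYB, MT-ND1, MT-ND2, MT-ND3, MT-TG, MT-TH, MT-TS2 and MT-TT). Of all tested genes, 14.9% were called higher in all 4 lines and 16.1% lower. Without both outlying libraries MT-TS2 was no longer called in WT cells (-1.61, adjusted p = 0.0893, in place of -2.19, 0.0127), and MT-TD was added, so that 11 members again were lower throughout. The share of all genes lower in all 4 lines is not given for that fit.

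For 29 of 36 members, the log2 fold change after arsenite was highest, that is the rise largest or the fall smallest, in SxxS cells. After hydrogen peroxide this held for 17 of 36. The share of all tested genes that were highest in SxxS cells was not determined for either oxidant. The members were measured in the same libraries, so they are not separate observations. After arsenite MT-ATP6 fell by 1.08 in SxxS cells, by 1.49 in D162R R234D, by 1.69 in vector and by 1.92 in WT cells (log2 scale, SE 0.14 each). Mean levels after arsenite were 251 ± 31.5, 231 ± 20.7, 205 ± 4.03 and 182 ± 26.7 CPM, and untreated 529 ± 49.0, 646 ± 81.5, 659 ± 36.9 and 692 ± 122, in the same order (SD, n = 3). SxxS cells thus had both the lowest untreated and the highest treated mean, and the change uses both.

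The test of a difference in arsenite response among the 4 lines called 0 of 36 members in edgeR (background 0% of tested genes), and 13 had an unadjusted p under 0.05. DESeq2 called 7 (0.703% of all genes), namely MT-ATP6, MT-ATP8, MT-ND1, MT-CYB, MT-ND4, MT-ND6 and MT-TL1, with adjusted p of 0.0132 to 0.0454, where edgeR gave 0.611 to 0.707. In edgeR without both outlying WT libraries the count stayed at 0. The difference between lines therefore depends on the tool.

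Hydrogen peroxide changed few members. Averaged over the lines, 7 of 36 were called, 4 higher (MT-TS1, MT-CO1, MT-CO2 and MT-CYB) and 3 lower (MT-TC, MT-TN and MT-TY), where 12.1% of all tested genes were called (6.78% higher and 5.3% lower). Medians were 0.13 over the mRNAs, -0.0003 over the tRNA genes and 0.08 over the rRNAs, beside 0.005 over all tested genes. Without both outlying libraries 11 members were called, with MT-ND2, MT-ND4, MT-ND4L and MT-RNR2 added, all higher, and then 28.6% of all genes were called.

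MT-TC showed the largest change. In vector cells it was at 6.40, 6.02 and 6.46 CPM untreated and at 4.04, 3.09 and 3.63 after hydrogen peroxide. In WT cells it was at 6.90, 7.05 and 5.72 untreated and at 3.83, 2.62 and 3.55 treated, the 2.62 being the outlying library. D162R R234D cells had 6.87, 5.51 and 5.34 untreated and 3.46, 3.25 and 3.71 treated.

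SxxS cells had 5.49, 5.55 and 5.38 CPM untreated and 3.29, 3.64 and 3.398 treated. In each of the 4 lines all treated libraries were below all untreated ones, and this was the one member called in every line, as were 0.209% of tested genes in the same direction. Without both outlying libraries MT-TN (lower) and MT-CO1 (higher) were also called in every line. In that fit 9.87% (vector), 8.98% (WT), 10.4% (D162R R234D) and 6.56% (SxxS) of all genes were called. The share called in every line is not given for it. The log2 fold change of MT-TC was -0.98 ± 0.13 in WT (adjusted p = 3.22e-05), -0.81 ± 0.14 in vector (0.00095), -0.77 ± 0.13 in D162R R234D (0.00146) and -0.67 ± 0.13 in SxxS cells (0.00754). Averaged over the lines it was -0.81 ± 0.07 (adjusted p = 8.37e-10), and -0.78 without both outlying libraries. Vector cells had no other member called (1.35% of tested genes, 0.712% higher and 0.636% lower). WT cells had 3 called, with MT-TN and MT-TS1 (8.06%, 5.8% higher and 2.26% lower). D162R R234D cells (1.03%, 0.503% higher and 0.525% lower) and SxxS cells (1.02%, 0.409% higher and 0.609% lower) each had 2 called, MT-TC and MT-CO1.

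The neighbours of MT-TC fell less. MT-TN had means of 9.61 ± 1.03 CPM untreated and 7.37 ± 0.771 after hydrogen peroxide (SD, n = 12; log2 fold change -0.38 ± 0.05, adjusted p = 7.42e-06). MT-TY had 27.9 ± 2.25 and 25.0 ± 4.12 (-0.16 ± 0.05, adjusted p = 0.0409), a call that was lost under 18 of 35 alternatives. The ratio of MT-TC to MT-TY per length was 0.185 to 0.250 in untreated libraries, 0.117 to 0.170 after hydrogen peroxide without the outlying library, where it was 0.0704, and 0.251 to 0.303 after arsenite without the outlying library (0.187). Its ratio to MT-TN was 0.617 to 0.800 untreated and 0.376 to 0.616 after hydrogen peroxide, which did not overlap, and 0.600 to 0.862 after arsenite, which did. MT-TC thus fell with one oxidant and rose with the other. The differences between these genes in response were not tested.

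MT-CO1 rose after hydrogen peroxide from 1553, 1412 and 1478 CPM to 2067, 1834 and 1900 in vector cells, without overlap. In SxxS cells it went from 1287, 1373 and 1254 to 1856, 1992 and 1647, also without overlap. D162R R234D cells had 1728, 1327 and 1359 untreated and 2193, 1790 and 2036 treated. There, too, all treated libraries lay above all untreated ones. The log2 fold change averaged over the lines was 0.39 ± 0.06 (adjusted p = 1.59e-05), and it was called within D162R R234D (0.45, adjusted p = 0.0492) and SxxS cells (0.49, adjusted p = 0.0293). Leaving out 1 library could remove either call. The adjusted p was 0.263 in D162R R234D cells without hydrogen peroxide replicate 1 and 0.172 in SxxS cells without hydrogen peroxide replicate 2. In WT cells the treated values were 2224, 1477 and 1844 CPM beside 1662, 1720 and 1348 untreated, overlapping (0.23, adjusted p = 0.205), and without both outlying libraries the value was 0.36 (adjusted p = 0.0491).

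MT-TS1 was at 5.93, 5.73 and 6.09 CPM in untreated vector cells and at 7.89, 7.23 and 6.37 after hydrogen peroxide. In SxxS cells it was at 4.14, 5.12 and 4.37 and at 5.66, 6.66 and 6.68, in both lines without overlap. Within lines it did not pass the test in vector (0.28, adjusted p = 0.753), D162R R234D (0.53, 0.349) or SxxS cells (0.48, 0.471). It was called in WT cells (0.72, adjusted p = 0.043). Without both outlying libraries it was called in WT, D162R R234D and SxxS cells (adjusted p from 0.00798 to 0.025) but not in vector cells (0.242). This gene, which adjoins the 3′ end of MT-CO1 on the other strand, had means of 5.46 ± 0.984 CPM untreated and 7.75 ± 1.58 after hydrogen peroxide (SD, n = 12) and rose by 0.50 ± 0.11 (adjusted p = 0.0025). Its ratio to MT-CO1 per length was 0.0673 to 0.108 in untreated libraries and 0.0682 to 0.0952 after hydrogen peroxide without the outlying library, which stood at 0.180. In the outlying arsenite library MT-TS1 was at 10.98 CPM against 5.29 and 4.42 in the other WT arsenite replicates. Whether the same reads counted toward MT-TS1 and MT-CO1 was not tested. MT-CO2 (0.20 ± 0.06, adjusted p = 0.0204) and MT-CYB (0.18 ± 0.06, adjusted p = 0.0494) rose slightly, the latter call being lost under 21 of 35 alternatives.

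The remaining mRNAs and rRNAs did not pass the test after hydrogen peroxide. Their log2 fold changes lay between 0.02 for MT-RNR1 (adjusted p = 0.865) and 0.19 for MT-ND2 (0.0589), with MT-RNR2 at 0.14 ± 0.05 (0.0933), MT-ND4 at 0.17 (0.139), MT-ND6 at 0.14 (0.244), MT-ND4L at 0.13 (0.697), MT-ATP6 at 0.12 (0.28), MT-ND1 at 0.10 (0.348), MT-CO3 at 0.09 (0.266), MT-ATP8 and MT-ND5 at 0.06 (0.776 and 0.879) and MT-ND3 at 0.05 (0.681). All 13 mRNAs had a positive value. The test of a difference in the response to hydrogen peroxide among lines called 0 members (background 0.685%), with 0 at an unadjusted p under 0.05 and 0 by DESeq2.

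**Figure D4:**
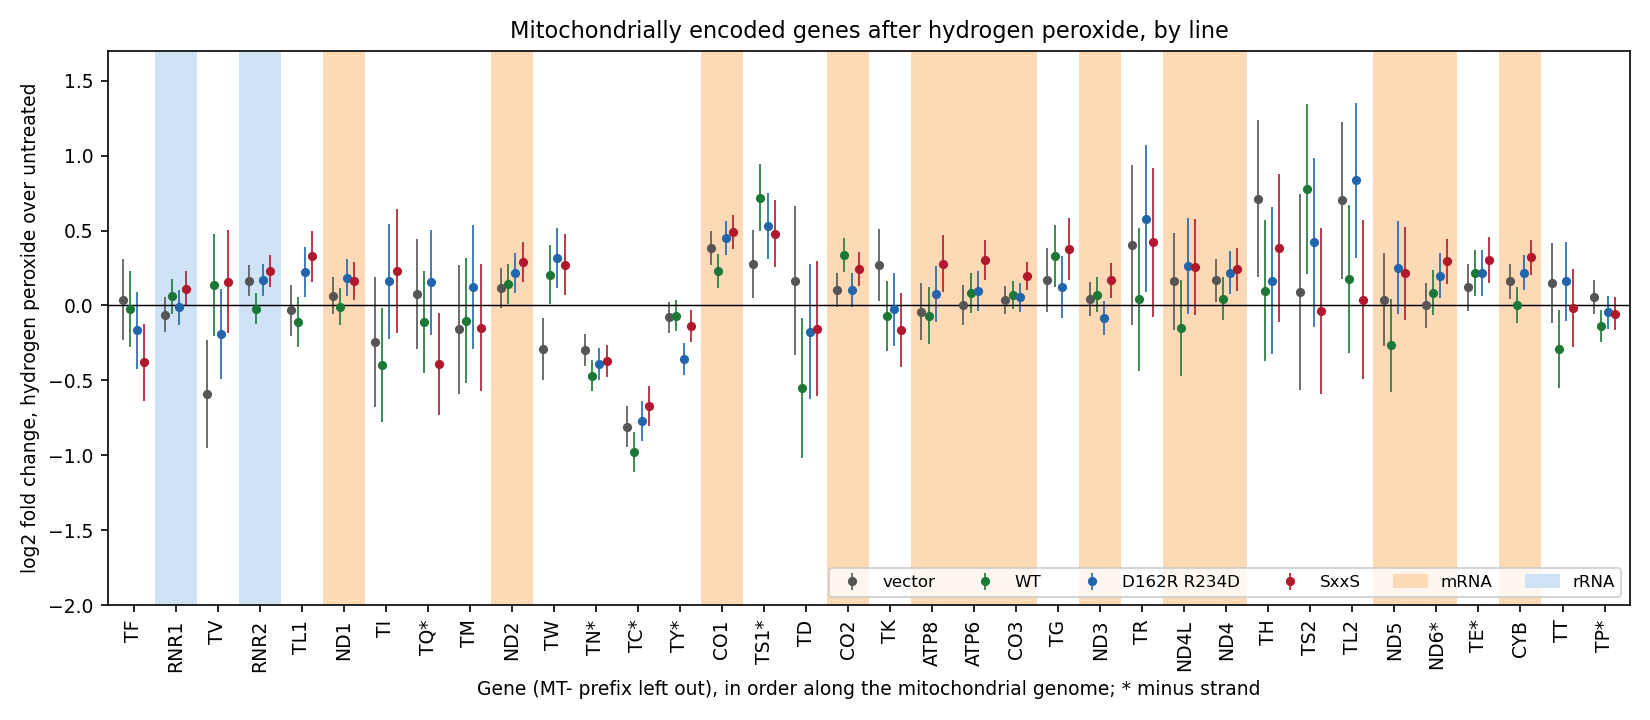
log2 fold change of hydrogen peroxide over untreated (y axis) for the 36 tested members in genome order (x axis, asterisks mark minus-strand genes), one colour per line, with bars of 1 SE. MT-TC lies lowest, at -0.98 to -0.67 in the 4 lines, and most mRNAs lie slightly above 0.

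**Figure D5:**
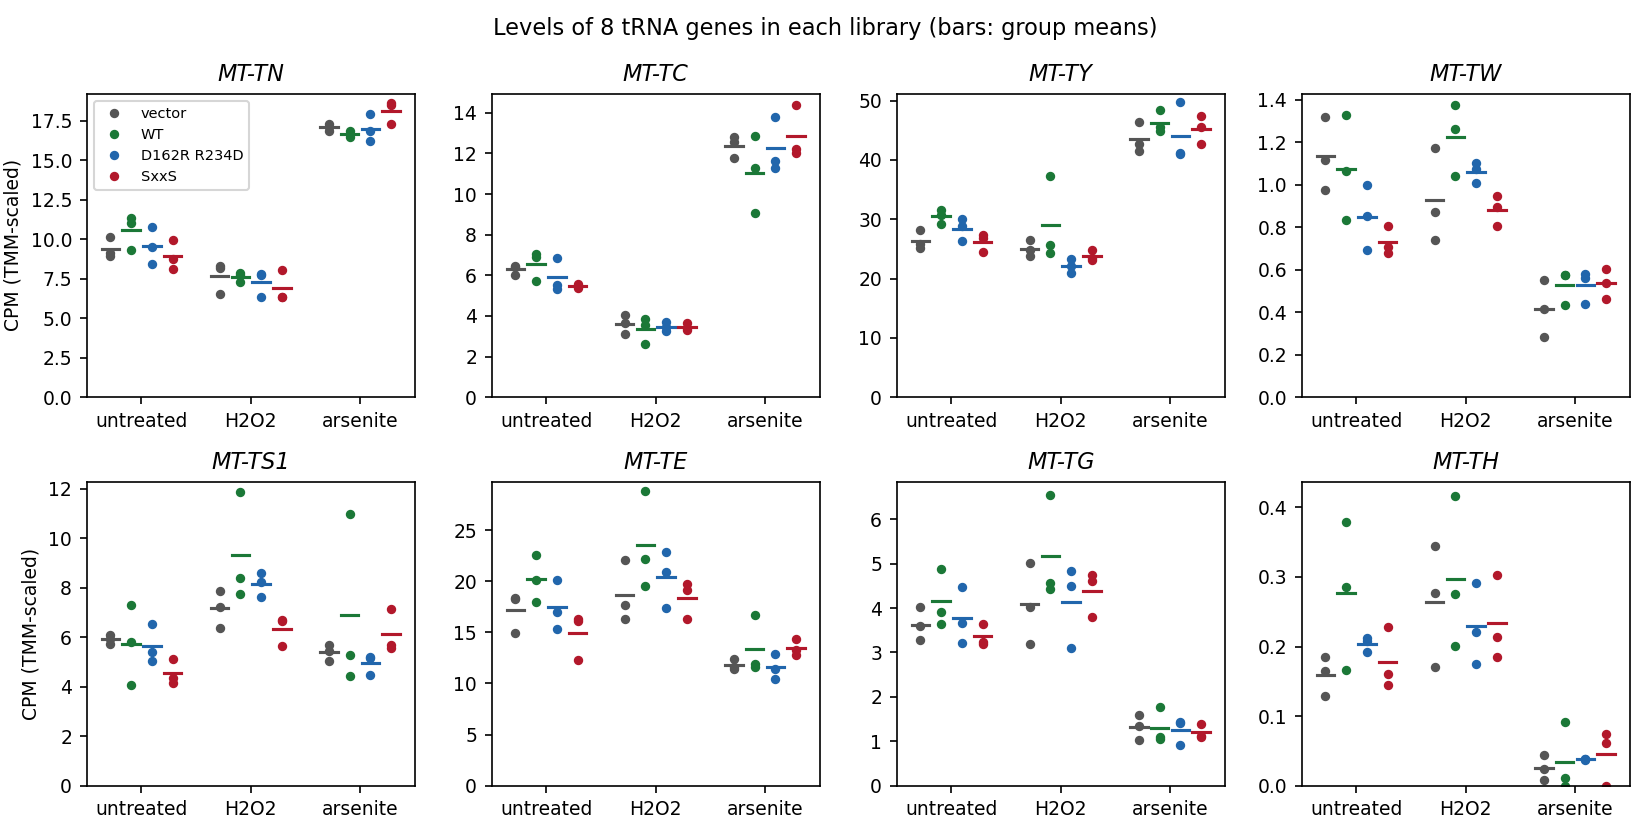
CPM of 8 tRNA genes in each of the 36 libraries by treatment (x axis) and line (colour), with bars at the group means. MT-TC is at 2.62 to 4.04 CPM after hydrogen peroxide, 5.34 to 7.05 untreated and 9.05 to 14.4 after arsenite, and the single high WT points of MT-TS1 are the 2 outlying libraries.

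Expression of TXNL1 forms left the mitochondrial genes without a called change in untreated cells. edgeR called 0 of 36 members for WT against vector (0.196% of tested genes, 0.0222% higher and 0.173% lower). It also called 0 for D162R R234D (0.0267%, 0.00889% higher and 0.0178% lower) and 0 for SxxS cells (0.0178%, 0.00445% higher and 0.0133% lower), and DESeq2 called 0 in each. Members with an unadjusted p under 0.05 numbered 1, 0 and 4. The mRNAs had medians of 0.09 (WT), -0.03 (D162R R234D) and -0.24 (SxxS). All 13 mRNAs were below vector in SxxS cells, and MT-CYB, for example, was at 426, 450 and 434 CPM there and at 539, 507 and 502 in vector cells, without overlap. In a fit of these groups alone, where 0.978% of all genes were called, 5 members were called lower in SxxS cells (MT-CYB, MT-RNR1, MT-ND1, MT-ND3 and MT-CO1, log2 fold changes of -0.24 to -0.18).

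Annotated nuclear copies of mitochondrial genes also collected counts. Of 404 copies in the table, 96 had at least 1 count. MTATP6P1 on chromosome 1 (chr1:633696-634376, plus strand, GRCh38), which differs from MT-ATP6 at 10 of 681 bases, had 221785 counts over the 36 libraries, or 17.7% of the 1252522 counts of MT-ATP6. It fell after arsenite by 1.65 (SE 0.07, adjusted p = 1.02e-18), beside 1.54 for MT-ATP6, and the ratio of the 2 per length was 0.169 to 0.189 in untreated and 0.139 to 0.178 in arsenite libraries. MTND2P28 (24111 counts) fell by 1.45 (SE 0.12, adjusted p = 9.58e-12), beside 1.24 for MT-ND2, and MTCO1P12 (7874 counts) changed by -0.32 (adjusted p = 0.00189) after arsenite and 0.29 (adjusted p = 0.026) after hydrogen peroxide. Counts of such copies and of the mitochondrial genes cannot be told apart here. Adding the copies to their genes moved the arsenite value of MT-ATP6 to -1.56 and left 29 and 7 members called after arsenite and hydrogen peroxide.

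Nuclear-encoded factors that act on mitochondrial RNA changed in both directions after arsenite. Of 57 factors, all tested, 20 were called higher and 25 lower, with a median of -0.05 beside 0.06 over all genes, of which 37.4% were called higher and 31.5% lower. Among 14 transcription and replication factors 6 were higher and 6 lower (median 0.05), among 23 processing and tRNA maturation factors 6 and 12 (-0.17), among 8 stability and decay factors 2 and 4 (-0.09), and among 12 translation factors 6 and 3 (0.08).

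The largest rises among these factors were those of TRIT1, which modifies tRNA (27.2 ± 1.37 to 51.6 ± 2.07 CPM, SD, n = 12, log2 fold change 0.92, adjusted p = 1.05e-21), SUPV3L1, the helicase of the mitochondrial degradosome (81.8 ± 3.60 to 155 ± 5.49, 0.92, 2.16e-22), the release factor gene MTRF1 (0.90, 5.86e-17) and MTO1, which modifies tRNA wobble uridines (0.77, 1e-17). FASTKD5, required to process mRNAs whose ends no tRNA borders, fell most (34.9 ± 1.99 to 9.44 ± 0.971 CPM, -1.89 ± 0.05, adjusted p = 1.14e-24). PDE12, which removes poly(A) from mitochondrial RNA, fell by 1.26 (1.25e-17), the helicase gene TWNK by 0.99 (1.21e-24) and MTERF1, which binds within MT-TL1, by 0.92 (5.52e-17). The factors named had the largest changes among those called on average and changed in 1 direction in all 4 lines. These are mRNA levels, and protein was not measured here.

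After hydrogen peroxide, 2 of the 57 factors were called higher and 7 lower, with a median of -0.02, where 6.78% and 5.3% of all genes were called. MGME1, a mitochondrial DNA exonuclease, rose by 0.15 (adjusted p = 2.6e-05) and the rRNA methyltransferase gene MRM2 by 0.13 (0.0343). The largest falls were 0.16 for MTRF1 (0.0191) and for TFB1M, which methylates 12S rRNA (0.00724), 0.15 for PNPT1, the RNA-degrading partner of SUPV3L1 (0.00154), and 0.13 for MTERF2 (0.0217). The log2 fold changes of all 57 lay between -0.20 and 0.15.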

How the data were processed

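Messenger RNA libraries of 12 groups with 3 replicates each were analysed. Per the paper's methods, the authors mapped read pairs of 100 bases with QuasR (GRCh38, primary assembly). The authors deposited raw counts per gene, with no normalization. The counting tool, annotation release, use of strand and treatment of mates are not given in the sources used here. Identifiers were matched to GENCODE release 44 (61415 of 61587), and 0 count columns were left unmatched. As in the study, a gene needed 10 counts summed over the untreated vector replicates. edgeR 4.0.16 (R 4.3.3) was run on 36 libraries with a mean for each group, TMM scaling, robust quasi-likelihood tests and Benjamini-Hochberg adjustment over 22486 genes, calling at 0.05. CPM use TMM-scaled totals. The biological coefficient of variation was 12.4%. Counting intervals are not given because replicate spread exceeded counting error (chi-square per degree of freedom from 3.31 to 343), so no library was a duplicate of another replicate of its group. Libraries of different groups were not compared in this way. The code was tested on simulated data. For arsenite in vector cells, 183 of 200 changed genes among 22486 were recovered with 4 false calls.

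The named genes were all mRNAs and rRNAs, the 3 largest rises and falls among tRNA genes called on average and changed in 1 direction in all lines, the cluster of MT-TC, the copies with the most counts, and up to 4 factors per direction. MT-TG, MT-TD, MT-TT, MT-TL1, MT-TI, MT-TE and those named in counts of calls were added after their values were seen. The members and lists were chosen with earlier results of these data known. Alternatives were DESeq2 1.42.0 or its size factors, library totals, nuclear-gene scaling, other filters, only the groups compared, halved counts, a replicate block, leaving out libraries, and, chosen after seeing the data, adding nuclear copies. Same-numbered replicates deviated together most clearly for hydrogen peroxide in D162R R234D cells (correlations of 0.362, 0.153 and 0.361 over 15674 genes), where the replicate block left the count at 2. Correlations were positive but smaller for arsenite in D162R R234D (0.133, 0.0683 and 0.0607) and SxxS cells (0.0297, 0.0156 and 0.0746). For hydrogen peroxide in WT cells they were mixed (0.416, 0.0287 and -0.317).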

Additional observations from a re-analysis of the deposited data

How the results depend on the processing

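With arsenite, the count of called members stayed within 1.5 times the main value under every alternative run, and each of the 29 members called on average kept its direction, with MT-CO1 the one call lost. After hydrogen peroxide, 11 members were called on average without both outlying WT libraries, and within lines then 3 (vector), 5 (WT), 5 (D162R R234D) and 4 (SxxS) in place of 1, 3, 2 and 2. In those fits 28.6% of all genes were called on average and 9.87, 8.98, 10.4 and 6.56% within the lines, up from 12.1% and from 1.35, 8.06, 1.03 and 1.02%. With only the groups compared, these were 4 (vector), 0 (WT) and 10 (SxxS), and 5 for SxxS against vector, with 12.5, 0.00445, 7.21 and 0.978% of all genes called. In that fit of WT cells the outlying library is 1 of 6, and the cause was not tested. DESeq2's test gave 2 in vector cells (2.39% of all genes) and 7 for the arsenite response between lines (0.703%). Library totals gave 1 each for D162R R234D (1.01%) and SxxS cells (1.13%), and no filter 1 for D162R R234D (0.239%). Leaving out 1 replicate gave 28 to 29 members for arsenite and 5 to 10 for hydrogen peroxide on average. The shares of all genes called are not given for these fits on average. Within D162R R234D cells leaving out 1 replicate gave 1 to 2 members. It gave 1 without untreated replicate 3 or hydrogen peroxide replicate 1 or 3 (0.654, 0.618 and 0.672% of all genes). Within SxxS cells it gave 1 to 2, with 1 when any untreated replicate or hydrogen peroxide replicate 1 or 3 was missing. In these SxxS fits with 1 member called, 0.365 to 0.778% of all genes were called. In SxxS cells the call of MT-TC was lost without hydrogen peroxide replicate 3 (adjusted p = 0.0572).

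The signs that reversed were those of small changes that had not been called. MT-TS1 after arsenite (0.10) became -0.0469 without both outlying WT libraries and ranged from -0.0298 to 0.166 when 1 library was left out, lowest without the outlying arsenite one. After hydrogen peroxide, MT-RNR1 (0.02) became -0.0230 without both and ranged from -0.0179 to 0.0458, lowest without the outlying library. MT-ATP8 (0.06) ranged from -0.0007 to 0.118, lowest without vector hydrogen peroxide replicate 1, and MT-ND5 (0.06) from -0.0367 to 0.160, lowest without WT hydrogen peroxide replicate 1. The share of counts changed by -0.0607 percentage points with arsenite and 0.100 with hydrogen peroxide, and these stayed within -0.0789 to -0.0429 and 0.0759 to 0.124. With the replicate block, 29 and 9 members were called on average for the 2 oxidants. The share of all genes called with it is not given. The replicate block moved no count by over 1.5 times. Plus-strand tRNA genes other than MT-TL1 and MT-TG are limited by depth, with at most 2085 counts (MT-TW) over 36 libraries.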
